A study of Mus musculus with 11 samples.

Results

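The enzymes of glycolysis were followed in hematopoietic stem cells (HSC) as 10 genes of the 37991 in the count table: Hk1, Hk2, Gpi1, Pfkl, Pfkp, Aldoa, Pgk1, Pgam1, Eno1 and Ldha. They were chosen by name, as enzymes that carry glucose to lactate in most tissues. The rule itself uses no measured value, but the choice was made with earlier results of these data known. All 10 were found in the annotation of NCBIM37, the mouse genome build the reads were aligned to, and all 10 passed the filter on low counts in every comparison. The lowest count of any of them in any library was 118, for Hk1.

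Sequencing covered 3 genotypes, with 4 libraries for control, 4 for NA10hd and 3 for NV, each made from 1000 HSC sorted from C57BL/6 mice 8 weeks old. NA10hd mice carry a fusion of NUP98 to the homeodomain of HOXA10, knocked into the ROSA26 locus behind a stop cassette flanked by loxP sites. NV mice carry 1 Nras allele with the G12D mutation behind a similar stop cassette. Vav-Cre, which is active throughout the blood lineage, removes the stop in both, so neither allele is limited to HSC. Controls are given as wild type in the labels and as littermates in the study's methods. For other assays, the study's text and legends name control mice with the silent fusion allele and no Cre. Whether the sequenced controls carried that allele is not given in the sources used here. The study calls the libraries of a population biological replicates, but the sources used here do not say which came from separate animals, so p-values measure the spread between these libraries, which may be partly technical.

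Total counts were 5464815 to 14283008 per library, with 13859 to 15900 genes detected. Gene counts cannot separate the fusion or the mutant allele from the normal genes. Hoxa10, whose homeodomain is in the fusion, was at 39.0, 35.6, 43.4 and 41.1 CPM in control and at 57.0, 60.8, 80.8 and 30.3 CPM in NA10hd. The library labelled NA10hd replicate 4 was thus below every control while the other 3 were above. Nup98, the other part of the fusion, ran the other way, at 36.2 CPM in that library, 5.29 to 15.2 in the other NA10hd libraries and 11.8 to 19.3 in control. Whether reads of the fusion count toward either gene is not given in the sources used here. That library keeps its label throughout, and no member was called in either NA10hd comparison without it. The 10 HSC markers listed for this check (among them Kit, Procr, Hlf and Mecom) were present in every library, and in sum they lay between 2645 and 3221 CPM for control, between 3051 and 3661 for NA10hd and between 2403 and 2859 for NV. CPM are counts per 1000000 counts of the library, corrected by TMM (edgeR's correction for library composition) over all 11 libraries. Ctsg, Cd3e and Il7r, which define granulocytes, T cells and lymphoid progenitors, had 0 counts in all 11 libraries, and Mpo was at 0 counts or below 1 CPM. Lyz2, of monocytes and granulocytes, was at 369 to 552 CPM in every group. The 6 megakaryocyte markers lay in sum between 90.7 and 117 CPM for control, between 63.0 and 124 for NA10hd and between 187 and 450 for NV. The 6 endothelial markers summed to 48.0 to 67.0 CPM for NV and to 106 to 216 CPM for the other groups, and the 6 erythroid markers to 42.6 to 80.4 CPM for NV and to 18.3 to 32.3 CPM for the others. Stromal markers summed to at most 26.1 CPM, lymphoid markers to at most 104 CPM, and myeloid markers to 372 to 554 CPM, nearly all of it Lyz2. Of the markers that the sort excludes, Cd48 was at most 5.9 CPM and Flt3 (CD135) at most 18.7 CPM. The part of these cells in the results below was not tested.

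Before the enzymes were compared, 2 features of the libraries had to be set beside them. The first was sex. Control replicates 2 and 3 and all 3 NV libraries held both Xist, expressed from the inactive X of females, and Y-linked counts. Control replicates 1 and 4 and NA10hd replicates 1 to 3 held Y-linked counts without Xist, and NA10hd replicate 4 held Xist alone. No NA10hd library therefore shared its mix with an NV library, and genotype and sex mix cannot be told apart in that comparison. The second was the counts on pseudogenes. NA10hd replicates 1 and 4 had 13040 and 13200 CPM on all annotated pseudogenes, while the other 9 libraries had 16450 to 24660. They also had the fewest genes detected and the highest share of counts on the mitochondrial genome, 5.28% and 4.95%. That share was 2.56% to 3.16% in NV, below every other library, and its part in the results was not tested. Called genes, and members with an unadjusted p under 0.05 in NA10hd against NV, are given with NA10hd replicates 2 and 3 alone as well.

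Glycolysis splits a glucose molecule into pyruvate in the cytosol, first spending ATP and then regaining it. Hexokinase traps glucose in the cell and phosphofructokinase commits it to the pathway, and phosphoglycerate kinase, phosphoglycerate mutase, enolase and pyruvate kinase carry out the later, ATP-yielding part. Lactate dehydrogenase turns pyruvate into lactate and so restores NAD+. Quiescent HSC live in a poorly oxygenated niche and are known for drawing on glycolysis, under the hypoxia factor HIF1A, which binds a short core sequence in the promoters of many of these genes.

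Several of these genes have processed copies elsewhere in the genome, which bears on how far their counts can be read. Of all 50-base windows of the Pgk1 transcript, 92.9% were found letter for letter at another place in NCBIM37. The share was 91.9% for Pgam1, 72.2% for Eno1, 31.4% for Gpi1, 29.1% for Ldha and 14.8% for Aldoa. It was 0.38% for Pfkl and 0% for Hk1, Hk2 and Pfkp. The windows are those of 1 transcript per gene, and exons outside it were not searched. That transcript has 3726 bases for Hk1, where all exons have 8532, and 4145 for Pfkp, where all exons have 9395. How reads that match several places were counted is not given in the sources used here.

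The stretches below show this at its extreme, at the start of the Pgk1 and Pgam1 coding sequences, which stand unbroken in 1 copy each (Pgk1-rs7 at chr12:10906988-10907047 and Pgam1-ps2 at chr7:28255495-28255554, minus strand), and in Eno1, where a capital marks the letter that differs between gene and copy. All 3 genes lie on the plus strand of NCBIM37.
Pgk1, chrX:103382590-103382649, the same in Pgk1-rs7: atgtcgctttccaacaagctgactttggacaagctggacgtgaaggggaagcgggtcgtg
Pgam1, chr19:41986538-41986597, the same in Pgam1-ps2: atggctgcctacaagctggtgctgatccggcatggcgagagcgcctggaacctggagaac
Eno1, chr4:149620707-149620766: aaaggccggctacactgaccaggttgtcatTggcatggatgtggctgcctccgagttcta
Gm13699, copy of Eno1, chr2:80677993-80678052: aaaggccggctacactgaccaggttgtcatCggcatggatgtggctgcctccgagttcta
All 1205 windows of the Pgk1 coding sequence and all 716 of Pgam1 were found in those copies. For Eno1, 1047 of 1256 were found in Gm13699.

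Counts on the pseudogene rows at these copies were low beside those of the genes. Over all libraries they came to 1150 for Pgk1 against 34381 on Pgk1 itself, 1517 for Eno1 against 24096, 290 for Pgam1 against 6230, and 522 for Ldha against 162428. The rows at copies of Pgk1 summed to 9.65 to 14.1 CPM in control and 10.4 to 18.3 in NV. In NA10hd they were at 0.49, 10.3, 8.13 and 0.28 CPM in replicates 1 to 4. The rows at copies of Eno1 were at 3.20 and 1.85 CPM in NA10hd replicates 1 and 4 and at 11.4 to 19.3 CPM in the other 9 libraries. Those 2 NA10hd libraries were thus low on the copies. Of the genes themselves, Pgk1 at 285 and 248 CPM lay within the range of the other NA10hd and control libraries, 170 to 344 CPM. Pgam1 at 39.0 and 18.3 CPM was lowest of all 11 libraries in these same 2, and Eno1 was at 193 CPM in replicate 1 and, in replicate 4, at 124 CPM, the lowest of all.

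**Figure D1:**
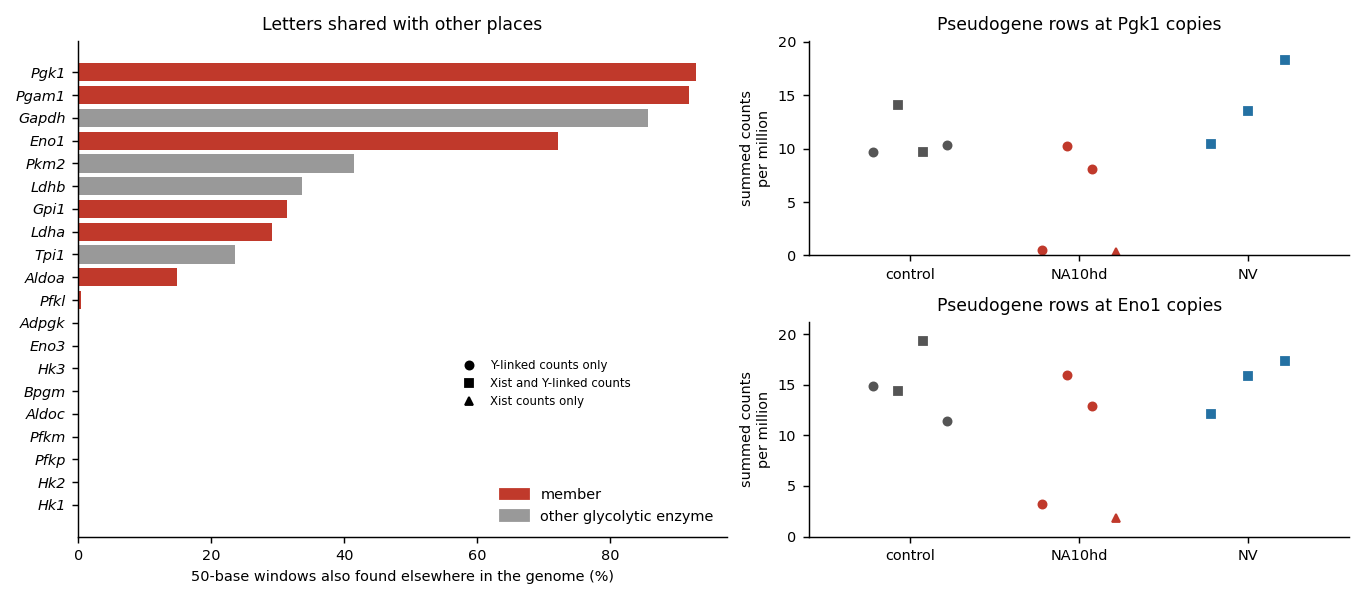
Left, the percentage of 50-base transcript windows found elsewhere in NCBIM37, for members and for other glycolytic enzymes with at least 1000 counts in all. Right, summed CPM of pseudogene rows at copies of Pgk1 and Eno1 in each library, with a point per library and its shape giving the sex mix. Pgk1 and Pgam1 stand above 90%, and 2 NA10hd libraries lie near 0 on the right.

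The promoters of the genes that were lowest in NA10hd relative to NV are shown for the core that hypoxia factors bind. Capitals mark ACGTG or GCGTG on either strand in the 250 bases before the start site. The sequences are RefSeq's for GRCm38.p6 and were placed in NCBIM37 by exact match. Where a gene had several start sites, the window with the most matches was taken.
Pgk1, chrX:103382189-103382438, plus strand: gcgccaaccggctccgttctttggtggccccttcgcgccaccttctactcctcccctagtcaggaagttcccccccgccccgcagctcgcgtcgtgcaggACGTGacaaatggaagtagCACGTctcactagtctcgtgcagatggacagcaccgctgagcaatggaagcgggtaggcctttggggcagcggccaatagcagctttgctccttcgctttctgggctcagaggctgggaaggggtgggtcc
Pgam1, chr19:41986111-41986360, plus strand: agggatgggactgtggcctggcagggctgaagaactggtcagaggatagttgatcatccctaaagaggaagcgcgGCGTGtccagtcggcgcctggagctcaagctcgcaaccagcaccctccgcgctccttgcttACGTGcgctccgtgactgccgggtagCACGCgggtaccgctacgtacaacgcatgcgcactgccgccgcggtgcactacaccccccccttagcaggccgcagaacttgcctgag
Eno1, chr4:149611056-149611305, plus strand: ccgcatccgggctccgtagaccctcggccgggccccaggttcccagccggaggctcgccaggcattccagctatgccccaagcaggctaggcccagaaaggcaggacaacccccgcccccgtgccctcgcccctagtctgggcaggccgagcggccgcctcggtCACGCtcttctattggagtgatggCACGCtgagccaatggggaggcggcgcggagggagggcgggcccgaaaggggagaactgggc
Ldha, chr7:54100924-54101173, plus strand: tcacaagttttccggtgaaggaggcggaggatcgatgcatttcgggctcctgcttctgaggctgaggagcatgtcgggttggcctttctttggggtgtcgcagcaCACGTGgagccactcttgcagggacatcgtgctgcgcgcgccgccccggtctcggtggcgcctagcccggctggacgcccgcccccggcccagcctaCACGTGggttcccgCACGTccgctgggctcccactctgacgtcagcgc
The core was counted 5 times in the Ldha window, 3 times in Pgam1, 2 times in Pgk1 and 2 times in Eno1. Matches on the 2 strands were counted separately, so each CACGTG in Ldha counts 2 times and its 5 matches form 3 stretches. Among the other members, in the window with the most matches, it was counted 3 times in Pfkp and in Hk1. It was counted 2 times in Hk2 and 1 time in Pfkl and in Aldoa. Of the 16 windows of the 10 genes, 13 held it, and 9 genes had it in at least 1 window, all but Gpi1. Some windows of Eno1 and of Aldoa overlap and hold the same matches, so the windows are not independent. Of all 32851 promoter windows of this length, 38.6% held it. The E-box CACGTG, which overlaps the core in its letters, was in 6.02% of all windows and in 1 window of the members, that of Ldha. A match describes these letters and shows no binding.

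Across the 3 comparisons, no member passed the test for a DEG. A DEG had an edgeR quasi-likelihood adjusted p under 0.05 over all tested genes and a fold change above 1.5. In NA10hd against control 0 of 10 members were called, where 0.00766% of 13060 genes were. In NV against control 0 of 10 were called, where 4.76% of 13462 genes were. In NA10hd against NV 0 of 10 were called, where 5.09% of 13461 genes were. At an unadjusted p under 0.05 there was 1 member in the first comparison (Ldha, background 11.9%), 2 in the second (Pfkp and Pgk1, background 19.5%) and 3 in the third (Pgk1, Eno1 and Ldha, background 19.5%). DESeq2 called 0, 0 and 1 member in the 3 comparisons, where it called 238 of 18828, 1015 of 19119 and 1472 of 18716 genes. With limma-voom it was also 0, 0 and 1 member, beside 2 of 13060, 647 of 13462 and 872 of 13461 genes. The member called was Pgk1 in NA10hd against NV each time. The first and second comparisons share the 4 control libraries, so their values for a gene are not independent.

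**Figure D2:**
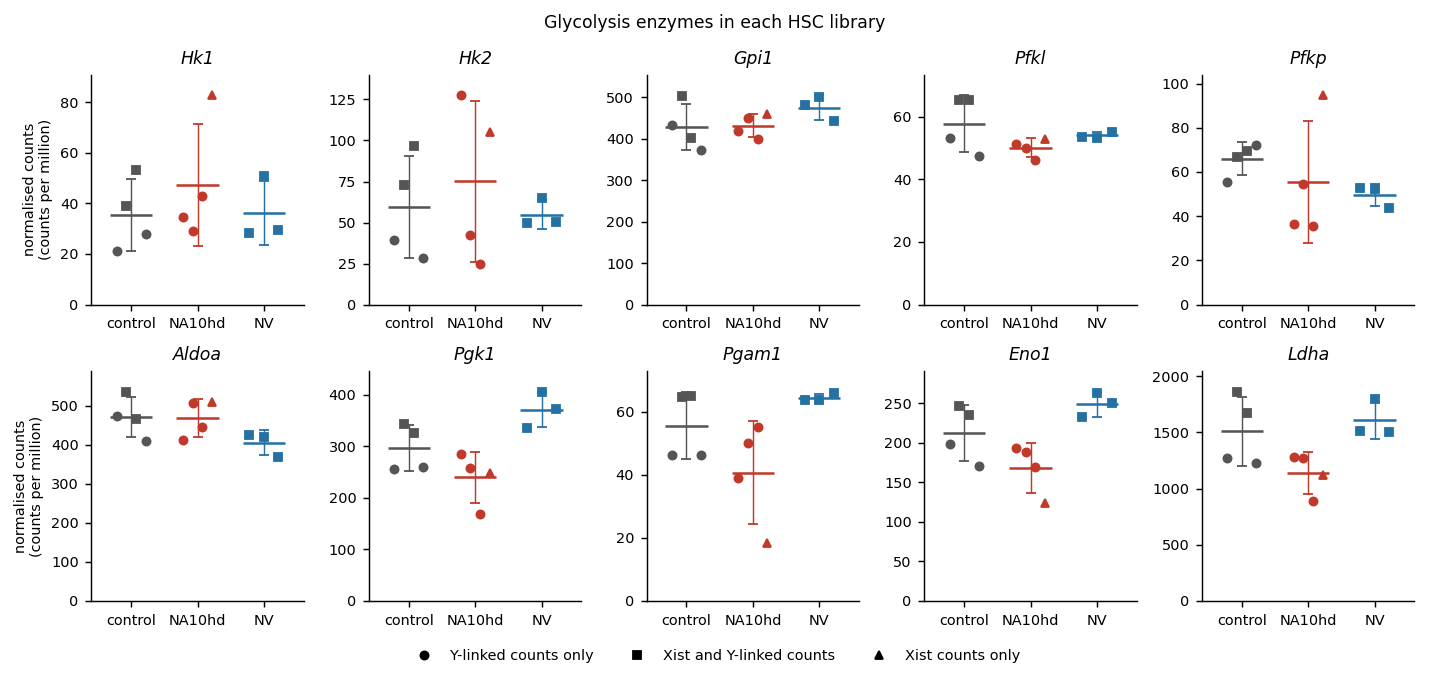
Normalised counts (CPM, axes from 0) of the 10 glycolysis enzymes in each library, with the group mean as a line and the SD as an error bar. Shapes give the sex mix of the library. In the lower row, Pgk1, Pgam1, Eno1 and Ldha are lower in all 4 NA10hd libraries than in all 3 NV libraries, and the control squares lie level with NV while the control circles lie near NA10hd.

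The hexokinases start the pathway. Hk1 (chromosome 10, 61731603 to 61842656, minus strand) encodes the form that binds mitochondria in most tissues. It was at 21.1, 39.2, 53.4 and 27.7 CPM in the control libraries, at 34.7, 29.2, 42.8 and 82.7 CPM in NA10hd and at 28.4, 50.7 and 29.4 CPM in NV. The groups overlapped throughout, and the highest value was that of NA10hd replicate 4. The log2 fold change was 0.41 ± 0.35 (SE, 95% interval -0.35 to 1.18) in NA10hd against control and 0.02 ± 0.31 (-0.65 to 0.69) in NV against control. With NA10hd replicates 2 and 3 alone it was 0.02 against control.

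Hk2 (chromosome 6, 82675019 to 82724448, minus strand), the hexokinase induced by growth signals and hypoxia, varied widely between libraries. It was at 39.5, 72.8, 96.7 and 28.5 CPM in control and at 49.5, 64.8 and 50.2 CPM in NV. In NA10hd the libraries were at 127, 42.2, 25.0 and 105 CPM, the first and last of them being the 2 low in pseudogene counts. NA10hd thus held both the highest and the lowest Hk2 level of the study. The log2 fold change in NA10hd against control was 0.32 ± 0.47 (-0.68 to 1.33) with all 4 libraries and -0.83 (adjusted p = 0.36) with replicates 2 and 3 alone. Against NV it was 0.43 ± 0.45 (-0.56 to 1.42) and -0.70 (adjusted p = 0.16), so no direction could be given.

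Gpi1 (chromosome 7, 34987141 to 35015308, minus strand) turns glucose 6-phosphate into fructose 6-phosphate. Its mean was 427 ± 55.8 CPM (SD, n = 4) in control, 431 ± 28.2 (n = 4) in NA10hd and 475 ± 29.2 (n = 3) in NV. The 95% interval of its log2 fold change was -0.29 to 0.32 in NA10hd against control and -0.11 to 0.40 in NV against control, within the 1.5-fold threshold on both sides.

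Of the phosphofructokinase subunits, Pfkl (chromosome 10, 77449692 to 77472828, minus strand), the liver type, was at 53.1, 65.3, 65.4 and 47.5 CPM in control. It was at 51.3, 50.2, 46.1 and 53.0 CPM in NA10hd and at 53.7, 53.4 and 55.2 CPM in NV. The NA10hd and NV values did not overlap, by a margin under 1 CPM, and the log2 fold change between them was -0.12 ± 0.19 (-0.54 to 0.31). Pfkp (chromosome 13, 6579014 to 6648023, minus strand), the platelet type, was at 55.6, 66.7, 69.6 and 72.3 CPM in control and at 52.9, 52.1 and 43.8 CPM in NV. All NV libraries were below all controls, a separation that 18.9% of tested genes showed in that comparison. The log2 fold change was -0.42 ± 0.16 (-0.77 to -0.07), and the edgeR adjusted p was 0.16. NA10hd libraries ranged from 35.4 to 94.6 CPM for Pfkp and overlapped both other groups.

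Aldoa (chromosome 7, 133938748 to 133944265, minus strand), the aldolase that splits the sugar, was at 472 ± 51.6 CPM (SD, n = 4) in control, 469 ± 48.3 (n = 4) in NA10hd and 405 ± 31.98 (n = 3) in NV. The difference between NA10hd and control was -0.01 ± 0.14 on the log2 scale (-0.31 to 0.30). In NV against control it was -0.22 ± 0.11 (-0.47 to 0.02), and the edgeR adjusted p was 0.31.

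The 4 remaining members, Pgk1, Pgam1, Eno1 and Ldha, were each lower in every NA10hd library than in every NV library, and each had a negative estimate in NA10hd against control and a positive one in NV against control. The pattern does not extend to all enzymes of the later part: Pkm2 and Gapdh overlapped between NA10hd and NV. With Pfkl, 5 of 10 members separated NA10hd from NV without overlap, where 21% of tested genes did. In NA10hd against control 0 of 10 separated (background 7.84%), and in NV against control 1 of 10, Pfkp.

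Pgk1 (chromosome X, 103382439 to 103399038, plus strand) makes the first ATP of the pathway. It was at 256.4, 344, 325 and 260 CPM in control, at 285, 258, 170 and 248 CPM in NA10hd and at 336, 405 and 372 CPM in NV. The lowest library was NA10hd replicate 3, and the NV values began above the highest NA10hd value and reached above the highest control. Between NA10hd and NV the log2 fold change was -0.64 ± 0.19 (-1.04 to -0.23), a level 1.55-fold lower, with an edgeR adjusted p of 0.075. Over its alternatives the adjusted p ran from 0.026 (DESeq2) to 0.28, and 5 of them called Pgk1: DESeq2, limma-voom, a minimum of 10 counts per library, a joint fit of the 3 groups, and NA10hd replicates 2 and 3 alone (-0.79, adjusted p = 0.044). When counts on its pseudogene copies were added to Pgk1, the value was -0.66 and the adjusted p 0.057. Against control the log2 fold change was -0.30 ± 0.18 (-0.69 to 0.09) in NA10hd and 0.32 ± 0.13 (0.04 to 0.60) in NV, where the adjusted p was 0.20.

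Pgam1 (chromosome 19, 41986361 to 41993154, plus strand) moves the phosphate of phosphoglycerate. It was at 46.3, 64.8, 64.9 and 46.3 CPM in control and at 63.6, 63.5 and 65.9 CPM in NV. NA10hd libraries were at 39.0, 50.1, 55.1 and 18.3 CPM, with replicate 4 far below the rest. The log2 fold change in NA10hd against NV was -0.66 ± 0.32 (-1.37 to 0.05), the edgeR adjusted p was 0.29, and it was -0.29 with replicates 2 and 3 alone. Against control, the NA10hd estimate was -0.44 ± 0.30 (-1.09 to 0.20).

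Eno1 (chromosome 4, 149610830 to 149622988, plus strand), the main enolase of most cells, was at 199, 247, 235 and 170 CPM in control. It was at 193, 188, 169 and 124 CPM in NA10hd and at 233, 264 and 251 CPM in NV. The lowest NV library was above the highest NA10hd library. The log2 fold change between them was -0.57 ± 0.18 (-0.97 to -0.17), the edgeR adjusted p was 0.10, and under DESeq2 it was 0.043 at a fold below the threshold. With NA10hd replicates 2 and 3 alone the log2 fold change was -0.47 (adjusted p = 0.075), and without replicate 4 it was -0.44 (0.13). Against control, with all libraries, it was -0.33 ± 0.18 (-0.72 to 0.06) in NA10hd and 0.22 ± 0.14 (-0.07 to 0.52) in NV.

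Ldha (chromosome 7, 54096845 to 54110997, plus strand), the lactate dehydrogenase subunit of glycolytic tissue, had the highest level of the members in every library. It was at 1274, 1860, 1670 and 1226 CPM in control, at 1283, 1272, 885 and 1123 CPM in NA10hd and at 1515, 1798 and 1503 CPM in NV. The log2 fold change in NA10hd against NV was -0.50 ± 0.16 (-0.85 to -0.15), with an edgeR adjusted p of 0.10 and, under DESeq2, of 0.048 at a fold below the threshold. With NA10hd replicates 2 and 3 alone it was -0.57 (adjusted p = 0.077), and without replicate 4 it was -0.49 (0.14). In NA10hd against control it was -0.40 ± 0.17 (-0.77 to -0.03), with an adjusted p of 0.38. In NV against control it was 0.09 ± 0.14 (-0.22 to 0.39). In these bulk libraries, fewer cells with the transcript and less of it per cell cannot be told apart.

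**Figure D3:**
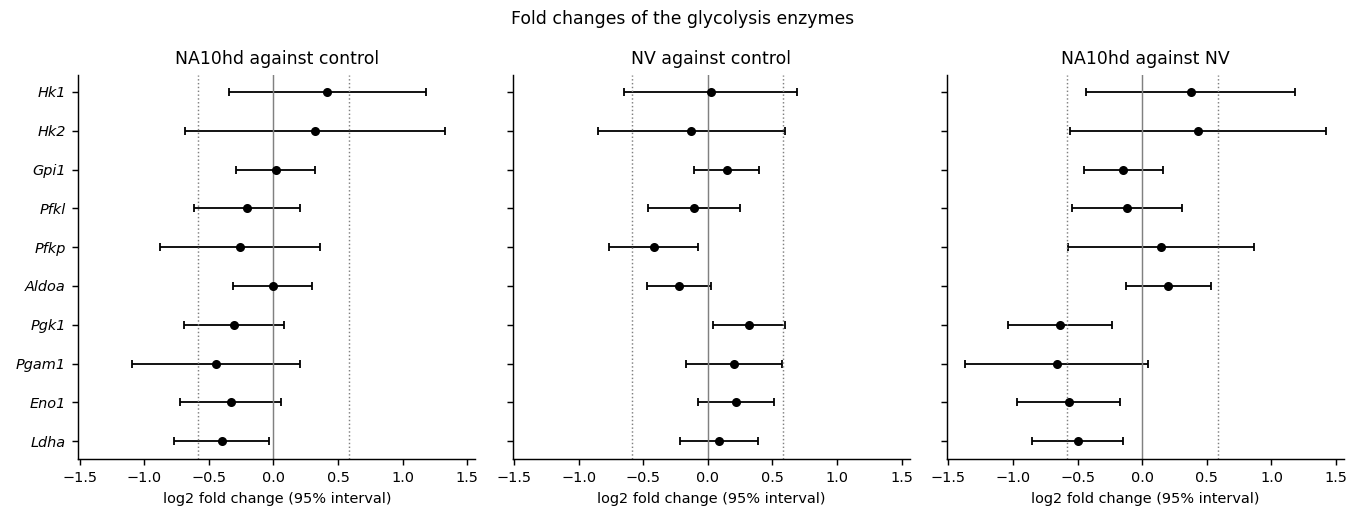
Log2 fold change of each member with its 95% interval from edgeR's quasi-likelihood fit, in the 3 comparisons, with dotted lines at 1.5-fold. In NA10hd against NV the intervals of Pgk1, Eno1 and Ldha lie below 0, that of Pgam1 reaches 0.05, and those of the other 6 members span 0.

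The sex mix moved with the level of most members within the controls. Control replicates 2 and 3, with Xist and Y-linked counts, were both above control replicates 1 and 4, with Y-linked counts only, for 7 of 10 members, where 20.8% of 14013 filtered genes did the same. Ldha was at 1670 and 1860 CPM in the first pair and at 1226 and 1274 in the second, and Hk2 at 72.8 and 96.7 against 28.5 and 39.5. The exceptions were Pfkp, Aldoa and Gpi1. When libraries of the same mix were compared, 3 against 2 in each case, the NA10hd estimates for Ldha, Pgk1, Eno1 and Pgam1 were nearer 0 than with all libraries: Ldha was at -0.13 in log2 fold change, Pgk1 at -0.12, Eno1 at -0.01 and Pgam1 at 0.06. In NV against controls of the same mix, Ldha was at -0.14, Pgk1 at 0.15, Eno1 at 0.04 and Pgam1 at -0.02. Other members moved away from 0: Hk2 was at 0.92 and Pfkp at -0.60 in NA10hd against control, and Hk2 at -0.63 and Hk1 at -0.36 in NV against control. The median over the 10 members was -0.23 in NA10hd against control with all libraries and 0.02 within the mix, and in NV against control it was 0.05 and -0.21. The same pairs of controls also differ in depth, at 10639180 and 12610189 total counts in replicates 2 and 3 and 5464815 and 7190197 in replicates 1 and 4. Whether sex itself, depth or another feature of these libraries goes with the level was not tested.

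As a group the members showed no common direction. In NA10hd against control 3 of 10 estimates were above 0 and the median log2 fold change was -0.23, beside 0.02 over all tested genes. In NV against control 6 of 10 were above 0 and the median was 0.05, beside -0.01. In NA10hd against NV 4 of 10 were above 0 and the median was -0.13, beside 0.01. The 10 genes together took between 0.27% and 0.38% of all counts in control libraries, between 0.23% and 0.30% in those of NA10hd and between 0.33% and 0.38% in those of NV. Ldha alone made up 39.0% to 49.0% of the members' counts in each library.

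Per kilobase of exon, which takes coverage along transcripts as even, as the study states for this input, the order of levels was nearly the same in all 3 groups. In control, Ldha was highest at 506 ± 103 CPM per kb (SD, n = 4), and Aldoa at 171 ± 18.7, Pgk1 at 132 ± 19.9 and Gpi1 at 95.004 ± 12.4 followed. Eno1 at 39.5 ± 6.499 and Pgam1 at 30.4 ± 5.84 lay within their summed spread of each other. Pfkl at 13.2 ± 2.04, Hk2 at 9.95 ± 5.22, Pfkp at 7.03 ± 0.78 and Hk1 at 4.14 ± 1.66 came last, and of these neighbours Pfkp and Hk1 alone differed by more than their summed SD. In NV, Pgk1 at 165 ± 15.4 CPM per kb exceeded Aldoa at 147 ± 11.6, within their spread. The order depends on the divisor. Divided by the number of unique windows of 1 transcript per gene, which drops both the other exons and the shared letters, control means were 2352 CPM per kb for Pgk1, 1239 for Ldha, 387 for Eno1, 383 for Pgam1, 369 for Aldoa and 313 for Gpi1, so that Pgk1 passed Ldha. Hk1 and Pfkp, with no shared window, went from 4.14 to 9.61 and from 7.03 to 16.1 by the change of exons alone, and the hexokinases and phosphofructokinases stayed lowest.

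Over the 11 libraries, the levels of some members tracked each other. The correlation of log2 CPM was 0.94 between Pgk1 and Ldha, 0.88 between Pgam1 and Eno1, 0.81 between Eno1 and Ldha, 0.78 between Pfkl and Ldha and 0.76 between Pgk1 and Eno1 (Pearson's r, n = 11 libraries of 3 genotypes, given as a description). It was lower for Pgam1 with Ldha, at 0.52, and with Pgk1, at 0.42, and lowest of the 45 pairs for Hk1 and Pgam1, at -0.45. Genes outside the list that were most like the mean of the members were Rsrc1 (r = 0.94), Amd1 (0.93), Znrf1 (0.92), Acadl (0.91), Eif5a (0.91), Polr1e (0.90), Clptm1l (0.90), Fkbp4 (0.90), Ddx51 (0.90) and Tuba4a (0.89), by Pearson's r of log2 CPM over the same libraries. These libraries differ in genotype, sex mix and depth together.

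The other enzymes and isozymes of the pathway made a list of 18 genes, 12 of which passed the filter. Pkm2, pyruvate kinase, was at 381 ± 15.1 CPM (SD, n = 4) in control, 401 ± 43.7 (n = 4) in NA10hd and 445 ± 57.2 (n = 3) in NV, and Tpi1, triose phosphate isomerase, at 230.05 ± 35.2, 221 ± 23.0 and 219 ± 15.7 CPM. Neither was called in any comparison. Gapdh, usually among the most abundant transcripts, had 63.0 ± 7.68 CPM in control, and 85.6% of its windows stand at other places, where 62 pseudogene rows held 9847 counts against 7138 on Gapdh itself. Pgk2 and Pklr, the testis form of phosphoglycerate kinase and the pyruvate kinase of liver and red cells, had 0 counts in all 11 libraries, where 3 counts would be 0.0266 CPM over the libraries together, a limit of counting error only. Pgam2 and Ldhc had 8 and 1 counts in all and did not pass the filter. Eno2, the neuronal enolase, was low in NV, at 1.91, 1.63 and 1.93 CPM, below the 4 controls at 8.77, 8.25, 3.75 and 5.25 CPM. Its log2 fold change was -1.83 ± 0.49 with an edgeR adjusted p of 0.051, and DESeq2 called it (adjusted p = 0.0086). Aldoc, the brain aldolase, was at 66.2, 32.9, 22.3 and 68.4 CPM in control, at 49.6, 80.6, 75.8 and 28.7 CPM in NA10hd and at 40.3, 23.2 and 25.0 CPM in NV, with overlap between all groups. Its log2 fold change in NA10hd against NV was 0.99 ± 0.37 (edgeR adjusted p = 0.15), and it was called with NA10hd replicates 2 and 3 alone (1.41, adjusted p = 0.021) and without NA10hd replicate 4 (1.22, adjusted p = 0.035). Hk3, Pfkm, Gapdhs, Bpgm, Eno3 and Adpgk were tested and not called.

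Ldhb, the lactate dehydrogenase subunit of oxidative tissue, was called in 1 comparison, where no other member or isozyme was. It was at 222, 175, 199 and 200 CPM in control, at 186, 260, 232 and 226 CPM in NA10hd and at 144, 144 and 136 CPM in NV. All 3 NV libraries were below every other library, and NA10hd overlapped control. It was higher in NA10hd than in NV by 0.67 ± 0.17 on the log2 scale (0.30 to 1.04, edgeR adjusted p = 0.043). In NV against control it was -0.50 ± 0.12 (adjusted p = 0.028), a fold below the threshold. The call against NV was lost when NA10hd replicate 2 or 3 or any NV library was left out, with adjusted p up to 0.22, and it was kept with NA10hd replicates 2 and 3 alone (0.80, adjusted p = 0.014). While 7 of the members were higher in control replicates 2 and 3 than in 1 and 4, Ldhb was lower, at 175.3 and 198.9 CPM against 222 and 199.7. The NV libraries, which share the sex mix of control replicates 2 and 3, were lower than NA10hd, so the call runs in the same direction as this split. Of its windows, 33.6% stand elsewhere.

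Ldha and Ldhb form the mixed tetramers of lactate dehydrogenase, and their balance was computed from counts divided by exon length, a description chosen after the values were seen. Ldhb made up 24.9%, 15.2%, 18.5% and 23.6% of the pair in control, 21.5%, 27.95%, 33.2% and 27.6% in NA10hd and 15.3%, 13.2% and 14.6% in NV. Every NA10hd library was above every NV library, with means of 27.6% ± 4.77 (SD, n = 4) and 14.4% ± 1.04 (n = 3). Control lay between them at 20.5% ± 4.52 and overlapped both. Control replicates 2 and 3, of the same sex mix as NV, were at 15.2% and 18.5%. Control replicates 1 and 4, with Y-linked counts only, were at 24.9% and 23.6%, within the NA10hd range. As a share of counts, with no division by length, Ldhb was lower, between 8.61% and 14.8% for control, between 12.6% and 20.8% for NA10hd and between 7.44% and 8.66% for NV, and every NA10hd library again exceeded every NV library.

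The balance of hexokinases and of phosphofructokinases was tested by a two-sided exact permutation test over libraries, adjusted over 6 comparisons. Hk2 made up 69.3% ± 6.51 (SD, n = 4) of the Hk1 and Hk2 pair in control, 65.4% ± 15.8 (n = 4) in NA10hd and 69.0% ± 3.77 (n = 3) in NV. Pfkp made up 21.2% ± 2.99 of Pfkl, Pfkm and Pfkp in control, 18.4% ± 9.24 in NA10hd and 16.6% ± 2.42 in NV. The lowest p was that of Pfkp in NV against control, -4.65 percentage points (exact permutation p = 0.11, adjusted p = 0.69). With 4 libraries against 3 the smallest p such a test allows is 0.057, with 4 against 4 it is 0.029, and the smallest adjusted p that 6 tests of these sizes allow is 0.057, so that none could pass and these shares are given as values. NA10hd spread most for both, from 45.5% to 84.0% for Hk2 and from 8.86% to 31.1% for Pfkp. As shares of counts, with no division by length, Pfkp made up between 36.8% and 46.4% for control, between 21.0% and 52.9% for NA10hd and between 29.6% and 36.9% for NV, so its size rests on the exon length used. Hk2 made up 50.7% to 65.2% of counts in control.

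**Figure D4:**
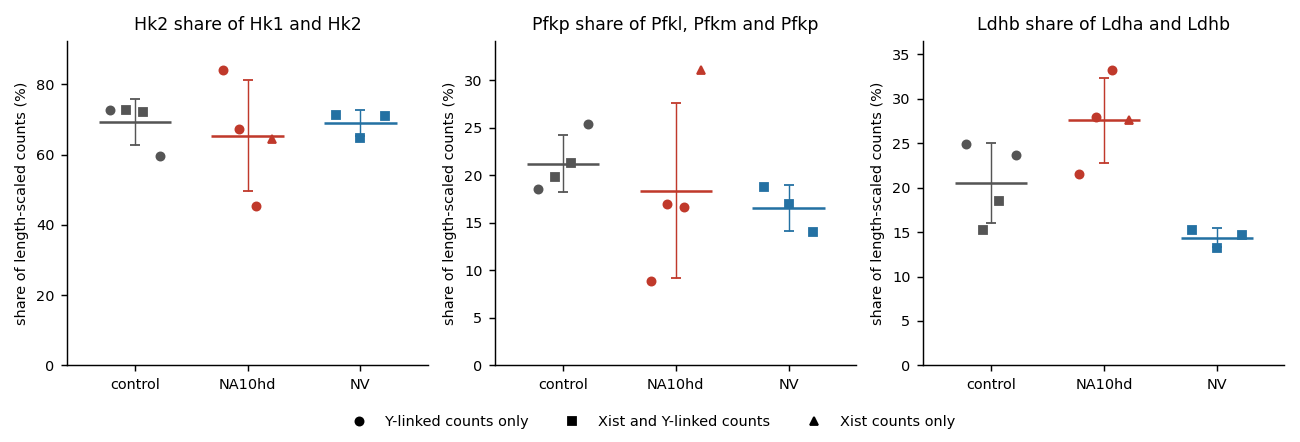
Share of Hk2, Pfkp and Ldhb in their isozyme sets (percent of counts divided by exon length) in each library, with group means and SD, shapes giving the sex mix. NA10hd libraries spread from 45.5% to 84.0% for Hk2, and all 4 lie above all 3 NV libraries for Ldhb.

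The lists around glycolysis were described in the same fits. Among 12 glucose and lactate transporters, 1 of 8 tested was called in NA10hd against NV, where 5.09% of all genes were. This was Slc16a1, the transporter that carries lactate and pyruvate across the cell membrane. It was at 40.3, 38.4, 57.8 and 33.5 CPM in control, at 32.8, 16.0, 21.9 and 12.6 CPM in NA10hd and at 55.3, 61.0 and 49.4 CPM in NV. NA10hd lay below both other groups, and against NV Slc16a1 fell by 1.41 on the log2 scale (SE 0.32, edgeR adjusted p = 0.031). Against control it was -1.03 ± 0.31, with an adjusted p of 0.28. The call was lost when NA10hd replicate 2 or 3 or any NV library was left out (adjusted p 0.054 to 0.16) and held with NA10hd replicates 2 and 3 alone (-1.54, adjusted p = 0.012). Slc2a1, a glucose transporter of most cells, had a log2 fold change of 0.87 ± 0.28 in NA10hd against NV (adjusted p = 0.10) and was called by DESeq2 (adjusted p = 0.030) and with all 3 groups in one fit (0.044). Slc2a3, another glucose transporter, named after its values were seen, had the higher counts, with a mean of 166 CPM in NA10hd and 225 in NV, and a log2 fold change of -0.45 ± 0.21 (adjusted p = 0.27). The list's median was -0.33 in that comparison.

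Of 15 regulators of glycolysis, 1 was called in NA10hd against NV, near the 5.09% of all genes, and 0 in the others. Mycn, a Myc family factor, was at 306, 330, 376 and 280 CPM in control, at 381, 417, 354 and 278 in NA10hd and at 219, 235 and 221 CPM in NV, below every other library. Like Ldha, it was higher in control replicates 2 and 3 than in 1 and 4. Its log2 fold change was 0.66 ± 0.17 in NA10hd against NV (edgeR adjusted p = 0.049, lost without NA10hd replicate 1, 2 or 3 or any NV library, and 0.78 with adjusted p = 0.014 for NA10hd replicates 2 and 3 alone) and -0.53 ± 0.12 in NV against control (adjusted p = 0.023, below the fold threshold). Myc went the other way in estimate, at -0.83 ± 0.27 in NA10hd against NV (adjusted p = 0.10). Hif1a, the hypoxia factor, had -0.61 ± 0.18 in NV against control (adjusted p = 0.080) and -0.45 ± 0.21 in NA10hd against control (adjusted p = 0.42), and DESeq2 called it in the former (adjusted p = 0.025). Pfkfb3, which makes the activator of phosphofructokinase, had -0.96 ± 0.31 in NA10hd against control (adjusted p = 0.29). The median of the list was 0.15, 0.10 and 0.12 in the 3 comparisons.

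Of the list of serine and glycerol branches, which also holds glycogen synthase (Gys1), 2 of 8 tested genes were called in NA10hd against NV, where 5.09% of all genes were. Phgdh, the first enzyme of serine synthesis, was at 225, 251, 236 and 276 CPM in control, at 172, 179, 124 and 144 CPM in NA10hd and at 280, 283 and 294 CPM in NV. The 3 groups did not overlap, with NA10hd lowest and NV highest. Psat1, the next enzyme, was at 94.6, 120, 96.7 and 107 CPM in control, at 77.6, 77.1, 69.3 and 94.2 CPM in NA10hd and at 141, 185 and 188 CPM in NV, again without overlap. Against NV, in NA10hd, Phgdh fell by 0.89 (SE 0.17, edgeR adjusted p = 0.012) and Psat1 by 1.12 (SE 0.18, adjusted p = 0.0059) on the log2 scale. In NV against control Psat1 rose by 0.71 (SE 0.14, adjusted p = 0.013), a call lost with all 3 groups in one fit (adjusted p = 0.055), without NV replicate 2 or 3, and within the same sex mix (0.66, adjusted p = 0.096). In NA10hd against control Phgdh was at -0.67 ± 0.16 (adjusted p = 0.20) and DESeq2 called it (adjusted p = 0.0081). The calls against NV were lost without NV replicate 2 or 3, and for Phgdh also without NV replicate 1, with adjusted p of 0.054 to 0.089. Neither gene was consistently higher in control replicates 2 and 3 than in 1 and 4. With NA10hd replicates 2 and 3 alone, Phgdh was at -0.91 (adjusted p = 0.022) and Psat1 at -1.22 (0.0095). Psph, the last enzyme of serine synthesis, named after its values were seen, had -0.23 ± 0.38 in NA10hd against NV (adjusted p = 0.81). Shmt1, which interconverts serine and glycine, had -0.88 ± 0.34 in NA10hd against control (adjusted p = 0.34) and 0.47 ± 0.16 in NV against control (adjusted p = 0.13). The list's median was -0.61 in NA10hd against NV, beside 0.01 over all genes, with 7 of 8 estimates below 0, and 4 of 8 did not overlap, where 21% of all genes did not.

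**Figure D5:**
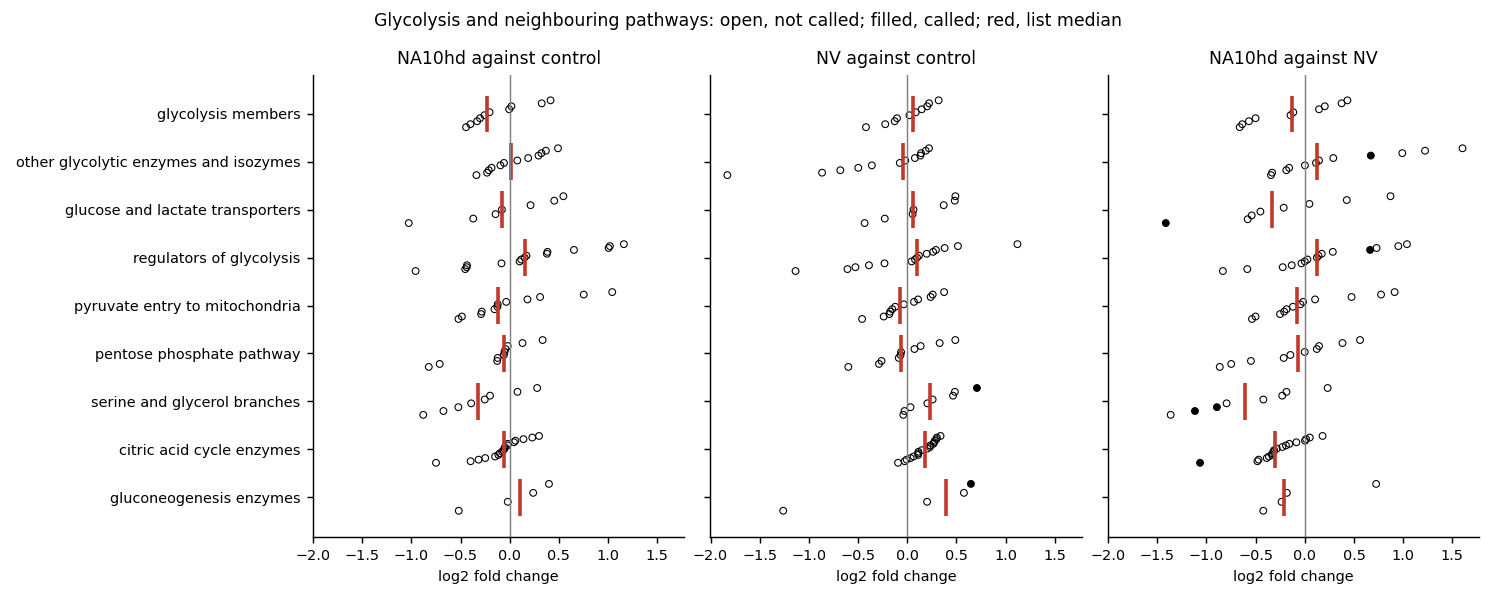
Log2 fold change of every tested gene in 9 lists, with filled points for called genes and a red bar at the list median. In NA10hd against NV the filled points below 0 are Slc16a1, Psat1, Phgdh and Idh3a and those above 0 are Ldhb and Mycn, while the 10 members are all open.

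Downstream of pyruvate, 0 of 12 tested genes of mitochondrial pyruvate entry were called in any comparison. Dlat, a subunit of pyruvate dehydrogenase, had -0.52 ± 0.19 in NA10hd against control (edgeR adjusted p = 0.32), and its kinases had 0.75 ± 0.31 for Pdk2 in the same comparison (adjusted p = 0.36) and -0.54 ± 0.18 for Pdk3 in NA10hd against NV (adjusted p = 0.11). Pdp1, the phosphatase that reactivates the complex, had -0.46 ± 0.23 in NV against control (adjusted p = 0.31). Of 18 citric acid cycle enzymes, 1 was called, near the 5.09% of all genes: Idh3a fell by 1.07 (SE 0.26, adjusted p = 0.042) in NA10hd against NV. It was at 86.0, 127, 128 and 77.3 CPM in control, at 92.1, 42.8, 44.98 and 69.6 CPM in NA10hd and at 112, 133 and 143 CPM in NV. Like Ldha, it was higher in control replicates 2 and 3 than in 1 and 4. The call was lost when NA10hd replicate 2 or 3 or any NV library was left out, with adjusted p of 0.078 to 0.20, and held with NA10hd replicates 2 and 3 alone (-1.55, adjusted p = 0.0043). In NA10hd against control Idh3a had -0.75 ± 0.27 (adjusted p = 0.32) and Suclg2 -0.40 ± 0.18 (0.41). Idh2 had 0.34 ± 0.11 and Mdh2 0.30 ± 0.11 in NV against control (adjusted p = 0.098 and 0.14), and Idh2 had -0.47 ± 0.18 in NA10hd against NV (0.16). The list's median was -0.06, 0.18 and -0.30 in the 3 comparisons, with 14 of 18 estimates below 0 in the last, where 6619 of 13461 genes were.

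In the pentose phosphate pathway, which draws on glucose 6-phosphate, 0 of 10 genes were called. Prps1, which makes the ribose precursor of nucleotides, had -0.87 ± 0.23 in NA10hd against NV (edgeR adjusted p = 0.053) and was called by DESeq2 (adjusted p = 0.013), limma-voom (0.020) and 6 other alternatives, among them NA10hd replicates 2 and 3 alone (-1.22, adjusted p = 0.0089). Taldo1, transaldolase, had 0.49 ± 0.13 in NV against control (adjusted p = 0.055), and Rpia -0.60 ± 0.19 (adjusted p = 0.090). Rpe had -0.82 ± 0.43 in NA10hd against control (adjusted p = 0.48). The list's median was -0.06, -0.07 and -0.07. Of 7 genes of gluconeogenesis, 4 were tested and 1 was called, in NV against control, where 4.76% of all genes were. Pck2, the mitochondrial enzyme that makes phosphoenolpyruvate, rose by 0.65 in NV against control (SE 0.15, adjusted p = 0.023), from 84.9 to 133 CPM. The call was lost with all 3 groups in one fit (adjusted p = 0.073), without control replicate 3 or NV replicate 2 or 3, and with the replicate number as a block (0.71, adjusted p = 0.057). Over these 9 lists, edgeR called 0 genes in NA10hd against control, where it called 1 of all tested. DESeq2 called 238 of all tested in that comparison, and Phgdh alone among the genes named for it.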

How the data were processed

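Gene counts were deposited as one table, which per the labels and the study's methods the authors made with HISAT2 alignment to NCBIM37 and featureCounts from amplified full-length cDNA libraries (Nextera XT). Versions, annotation release, strand and the handling of reads with several matches are not given in the sources used here. GENCODE M1 named all but 786 of 37991 rows. Each comparison was fitted on its own libraries with edgeR 4.0.16 (R 4.3.3; filterByExpr, TMM, quasi-likelihood test, Benjamini-Hochberg adjustment over all genes tested). A DEG needed an adjusted p under 0.05 and a fold above 1.5. DESeq2 1.42.0, limma 3.58.1 voom, other filters and scalings, 1 joint fit, a replicate block, libraries of the same sex mix and each library left out were alternatives. Adding pseudogene counts and using NA10hd replicates 2 and 3 alone were chosen after seeing the data. The main edgeR fit of each comparison, and none of the alternatives, was run on simulated counts with planted changes. It missed some of these changes in every comparison, so a gene not called is not shown to be unchanged.

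Members and lists were chosen with earlier results of these data known. Named were the members, the tested isozymes and, of each other list, called genes and, where fewer than 2 were called, those of lowest p up to 2 per comparison. The isozyme shares were compared by exact permutation tests (scipy 1.17.1), except the Ldhb share, added after its values were seen. Some genes of these lists are not reported here. Intervals cover the spread between libraries, and limits on 0 counts cover counting error only.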

Additional observations from a re-analysis of the deposited data

Results flagged for a closer look

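The share of Hk2 in the hexokinase pair (counts divided by exon length) was 59.5% in control replicate 4, while the nearest of the other 3 controls was at 72.1%, a gap of 0.95 of the group's whole range by Dixon's criterion at the 95% level. Of 26 groups of values examined this was the one so marked, and about 5% of groups pass by chance.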

How the results depend on the processing

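The count of members called stayed at 0 in NA10hd against control and NV against control under all alternatives run. In NA10hd against NV it was 1 in place of 0, Pgk1 each time, under DESeq2, limma-voom, at least 10 counts in every library, the joint fit of the 3 groups and NA10hd replicates 2 and 3 alone, and 0 with any single library left out. The number of genes called of all tested, 1, 641 and 685 in the 3 comparisons, became 238, 1015 and 1472 under DESeq2, 39, 155 and 1152 in the joint fit, and 0 to 5, 263 to 643 and 146 to 771 with 1 library left out. Same-numbered libraries did not deviate together (correlations -0.088 to 0.026), so the numbers were not taken as pairs, and with the replicate number as a block 0, 432 and 581 genes and 0 members were called. With NA10hd replicates 2 and 3 alone, the log2 fold changes that changed sign were Hk2 -0.83, Gpi1 -0.0147, Aldoa 0.013, Pfkm -0.0449, Gapdhs 0.30 in NA10hd against control, and Hk1 -0.00365, Hk2 -0.70, Pfkp -0.14, Pfkm -0.18, Tpi1 -0.0649, G6pc3 0.0228 in NA10hd against NV. Within the same sex mix, the log2 fold changes that changed sign were Aldoa 0.0437, Pgam1 0.0574, Hk3 -0.39, Tpi1 0.073, Gapdh 0.0765, Gapdhs 0.18, Eno2 0.0254, Eno3 -0.088 in NA10hd against control, and Hk1 -0.36, Pgam1 -0.015, Ldha -0.14, Aldoc 0.0936, Gapdh -0.055, Adpgk -0.0656 in NV against control. Under limma-voom, the log2 fold changes that changed sign were Hk2 -0.0309 in NA10hd against control, and Hk1 -0.0232, Bpgm 0.0062 in NV against control, and Pfkp -0.0174, Pfkm -0.0189, Tpi1 -0.00837, Gapdhs -0.40 in NA10hd against NV. With no filter on low counts, the log2 fold changes that changed sign were Tpi1 -0.00902 in NA10hd against NV. With the replicate block, the log2 fold changes that changed sign were Hk1 -0.0257 in NV against control, and Hk2 -0.11, Pfkp -0.26, Tpi1 -0.0295, Gapdhs -0.45, Eno3 -0.0272 in NA10hd against NV. With pseudogene counts added, the log2 fold changes that changed sign were Tpi1 -0.000367 in NA10hd against NV. With 1 library left out, the log2 fold changes that changed sign for some library ranged as follows, lowest to highest, Hk2 -0.0558 to 0.67, Gpi1 -0.0453 to 0.10, Aldoa -0.0681 to 0.0606, Hk3 -0.0398 to 0.68, Pfkm -0.13 to 0.50, Tpi1 -0.11 to 0.0469, Gapdhs -0.63 to 0.17, Eno2 -0.97 to 0.14 in NA10hd against control, and Hk1 -0.31 to 0.29, Hk2 -0.36 to 0.21, Ldha -0.00619 to 0.20, Tpi1 -0.13 to 0.0307, Gapdh -0.00444 to 0.13, Bpgm -0.10 to 0.0891, Eno3 -0.13 to 0.39 in NV against control, and Hk1 -0.025 to 0.69, Pfkp -0.23 to 0.31, Pfkm -0.27 to 0.36, Tpi1 -0.0588 to 0.0702, Gapdhs -0.27 to 0.87 in NA10hd against NV. The isozyme share differences that changed sign ran, in percentage points, Hk2 share -10.1 to 2.69, Pfkp share -7.06 to 0.34 in NA10hd against control, and Hk2 share -3.57 to 1.86 in NV against control, and Hk2 share -9.83 to 3.01, Pfkp share -2.42 to 4.99 in NA10hd against NV. The cause of these changes was not tested. The lowest count of a member in any library was 118, while Pgam2 and Ldhc had too few counts to be tested.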
